A study of Homo sapiens with 48 samples.

Results

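The SR proteins and the core proteins of the spliceosome were followed here through knockdown of 2 eIF2B subunits. The members were the genes whose symbol begins with SRSF, SF3A, SF3B, SNRP, U2AF, PRPF or LSM followed by a letter or digit. This gave 62 of the 12256 genes measured: 61 of 11145 in the table of ribosome-protected fragments (RPFs), 62 of 11947 in the table of total cytoplasmic RNA and 61 of the 10836 in both. LSMEM1, listed only in total RNA, shares the letters of the LSM genes but is not an LSM protein. The symbol rule uses no measured value, but it was set with earlier results of these data known.

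SW480 cells, an APC-mutant human colorectal cancer line, carried a DOX-inducible shRNA: the non-targeting shCTRL, shEIF2B1 against the mRNA of eIF2Bα, or shEIF2B4 against that of eIF2Bδ. Each line was grown without DOX (DMSO, -DOX) or for 5 days in 1 µg/ml DOX (+DOX). The 6 groups have 4 replicates each, and a replicate is a separate week. From every lysate, 24 in all, an RPF library and a total RNA library were made. Every line, shCTRL included, carries an integrated shRNA cassette and was exposed to DOX when induced, and all 3 lines derive from 1 cell line. Values are on the regularized log2 scale of DESeq2, where a difference of 1 is nominally a doubling. The scale shrinks the differences of genes with few reads. The values hold no read counts, so the depth is unknown. P-values measure how far the differences between groups varied from week to week, not the spread between weeks itself.

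Introns are removed from pre-mRNA by the spliceosome, which assembles on each intron from small nuclear ribonucleoproteins (snRNPs). In the U1, U2, U4 and U5 snRNPs a ring of Sm proteins encircles the RNA, and in U6 a related ring of LSM proteins does so. The SF3a and SF3b complexes belong to the U2 snRNP and hold it at the branch point, the U2AF heterodimer reads the polypyrimidine tract and AG of the 3′ splice site, and most PRPF proteins act in the U4/U6.U5 tri-snRNP or near it. SR proteins bind exonic enhancers through RNA recognition motifs and recruit this machinery through arginine-serine repeats. eIF2B recharges the initiation factor eIF2 with GTP, and its loss or inhibition lowers initiation on most mRNAs while raising that of ATF4. The paper reports that in SW480 cells depleting eIF2Bδ reduced global protein synthesis, and that depleting eIF2Bα alone did not.

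The targeted and response genes were checked first. A response is the effect of DOX in a knockdown line after subtracting the effect of DOX in shCTRL. It was fitted in limma with the week as a block, and calls used an adjusted p (Benjamini-Hochberg, over all genes) under 0.1. EIF2B1 fell by 0.67 ± 0.15 (SE) on the log2 scale in total RNA after shEIF2B1 (adjusted p = 0.0263), and EIF2B4 fell by 0.49 ± 0.14 after shEIF2B4 (adjusted p = 0.0634). In RPFs EIF2B1 was called after shEIF2B1 (-0.53 ± 0.13, adjusted p = 0.0109). EIF2B4 was not called in RPFs after shEIF2B4 (-0.48 ± 0.19, adjusted p = 0.236). RPFs of ATF4 rose by 1.02 ± 0.15 after shEIF2B1 and by 0.76 ± 0.20 after shEIF2B4. Of 10 markers of colorectal epithelium 7 were listed in either table, and none of 7 markers of leukocytes, fibroblasts and endothelium was. All 8 RPF libraries of shEIF2B4 had a lower median over genes (6.84 to 6.97) than the 8 of shCTRL (6.98 to 7.06).

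Members differ in the bases their codons end on, and the results below go with that property, so the first 150 coding bases of 5 of them are shown. The set holds SNRPF and SNRPD2 of the Sm ring and 3 SR proteins, SRSF7, SRSF2 and SRSF8. Sequences are read 5′ to 3′ from GENCODE v29 transcripts on GRCh38, and capitals mark a G or C at the third position of a codon:
SNRPF: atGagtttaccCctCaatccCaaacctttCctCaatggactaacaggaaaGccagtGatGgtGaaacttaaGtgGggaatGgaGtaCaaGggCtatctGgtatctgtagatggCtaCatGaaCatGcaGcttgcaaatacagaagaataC
SNRPD2: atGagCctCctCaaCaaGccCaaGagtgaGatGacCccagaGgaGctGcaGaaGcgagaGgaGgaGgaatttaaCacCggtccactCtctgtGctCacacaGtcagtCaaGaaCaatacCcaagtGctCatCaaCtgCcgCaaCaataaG
SRSF7: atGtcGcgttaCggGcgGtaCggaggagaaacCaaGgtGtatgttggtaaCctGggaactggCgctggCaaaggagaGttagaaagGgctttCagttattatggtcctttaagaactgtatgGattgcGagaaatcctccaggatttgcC
SRSF2: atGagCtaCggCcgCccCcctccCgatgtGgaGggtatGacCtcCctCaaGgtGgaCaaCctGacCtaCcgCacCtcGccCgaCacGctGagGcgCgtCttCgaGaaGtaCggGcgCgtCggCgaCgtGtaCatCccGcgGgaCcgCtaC
SRSF8: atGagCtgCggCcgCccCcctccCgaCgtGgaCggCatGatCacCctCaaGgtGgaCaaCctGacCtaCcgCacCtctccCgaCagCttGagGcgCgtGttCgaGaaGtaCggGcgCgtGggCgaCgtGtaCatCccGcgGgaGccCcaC

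In genome order of their coding exons these stretches span chr12:95859074-95865344 (plus strand) for SNRPF and chr19:45688419-45691888 (minus strand) for SNRPD2. Those of the SR genes span chr2:38750073-38751256 (minus strand) for SRSF7, chr17:76737011-76737160 (minus strand) for SRSF2 and chr11:95067227-95067376 (plus strand) for SRSF8. Of 50 codons, 25 ended on G or C in SNRPF, against 37 in SNRPD2. Among the SR genes the numbers were 19 in SRSF7, 47 in SRSF2 and 48 in SRSF8. SRSF2 and SRSF8 held the same base at 135 of these 150 positions, so reads of one may have been given to the other. Over the whole counted coding sequence, the share of codons ending on G or C (GC3) ran from 29% in PRPF39 to 87.38% in LSM7, with a median of 52.31% over 61 members and of 59.18% over 11817 genes.

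After shEIF2B1, RPFs of 27 of the 61 members fell, those of 1 rose, SRSF8, and 33 were not called, while over all genes 15.3% were called lower and 12% higher. The median response of the members was -0.33 on the log2 scale, against -0.01 over all genes. In lysates of a whole culture, fewer cells of a type and less RNA per cell cannot be told apart. Among 11 snRNP proteins 8 fell (median -0.48), among 13 PRPF proteins 7 fell (median -0.45), among 9 SF3 proteins 4 fell (median -0.29) and among 13 LSM proteins 5 fell (median -0.16). SR proteins were more mixed, with 3 of 11 lower, 1 higher and a median of -0.18. None of the 4 U2AF genes was called in limma and none had an unadjusted p under 0.05, and their median was 0.14. These subgroups were set side by side without a test of one against another.

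The count rests on the paired weeks. Without the week as a block 0 of 61 members were called by limma and 7 had an unadjusted p under 0.05. Over all genes the share called went from 27.3% to 0.449%. Leaving out week 1 or week 4 left 15 and 12 calls, where 14% and 13.7% of all genes were called.

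**Figure D1:**
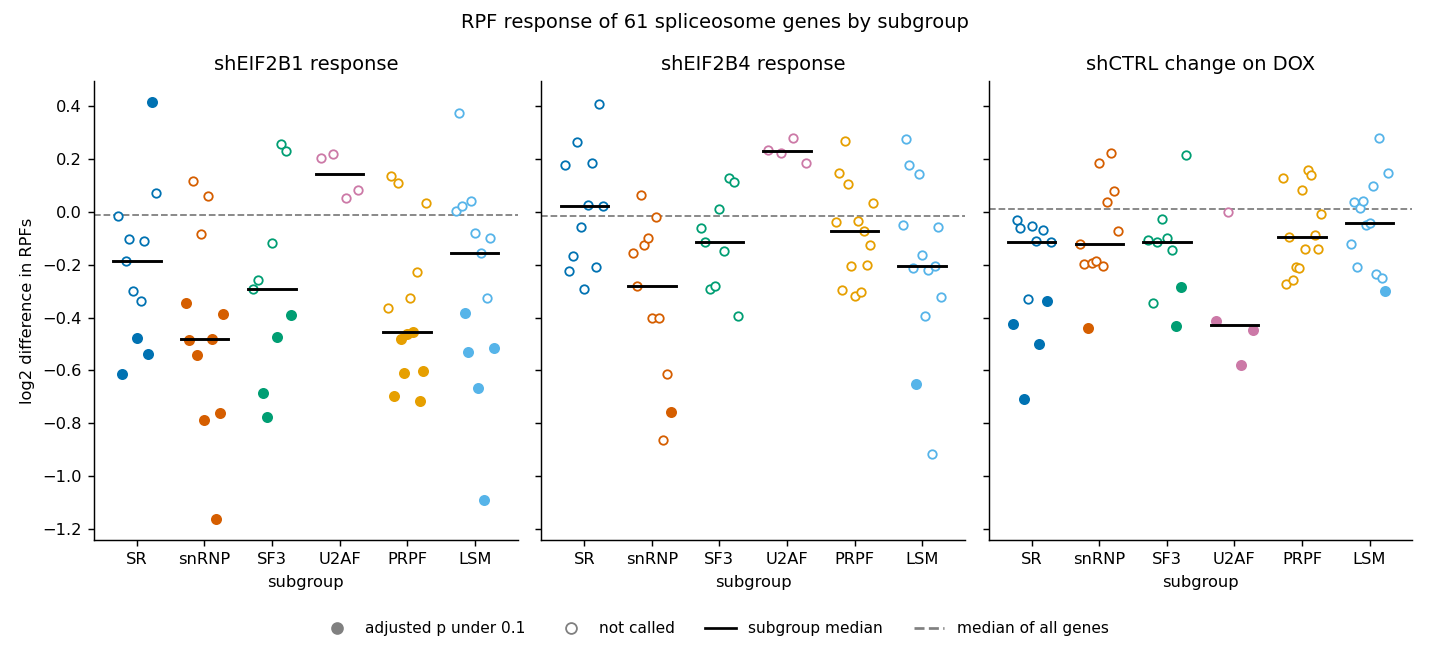
Log2 difference in RPFs (y axis) of each of the 61 members, 1 point a gene, by subgroup (x axis), for the responses to shEIF2B1 and shEIF2B4 and for the change of shCTRL on DOX. Filled points were called at an adjusted p under 0.1, black bars are subgroup medians and the dashed line is the median of all genes; after shEIF2B1 most snRNP and PRPF genes lie well below that line, with SNRPE lowest at -1.16.

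The largest fall was that of SNRPE, a protein of the Sm ring. Its log2 RPF values in weeks 1 to 4 were 5.57, 7.41, 5.76 and 7.84 in shEIF2B1 -DOX and 4.92, 6.16, 4.63 and 7.09 in shEIF2B1 +DOX. In shCTRL they were 4.92, 6.09, 5.25 and 6.18 without DOX and 5.20, 6.27, 4.97 and 6.88 with it. The groups overlap across weeks, but within every week the induced shEIF2B1 library was below the uninduced one, and the uninduced one was above shCTRL. The response was -1.16 ± 0.24 (SE, adjusted p = 0.00368), and it had the same sign in 4 of 4 weeks. Its counted transcript carries a coding sequence of 156 nt, against 276 nt for the longest of the gene, so the value covers reads on part of the protein.

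SNRPF, which sits beside SNRPE in the Sm ring, had the smallest p of all members. Its RPF values were 9.23, 10.11, 9.64 and 10.55 in shEIF2B1 -DOX and 8.72, 9.39, 8.75 and 9.96 in shEIF2B1 +DOX, while shCTRL had 8.92, 9.55, 8.97 and 9.92 without DOX and 8.98, 9.48, 9.25 and 9.99 with it. In shCTRL the induced library was lower in week 2 only, and in shEIF2B1 it was lower in all 4 weeks. The response was -0.76 ± 0.13 (adjusted p = 0.000807). SNRPD1, another Sm protein, went from 7.02, 7.68, 6.85 and 7.97 to 6.06, 6.99, 6.33 and 7.73 in shEIF2B1, lower in every week, while shCTRL was higher in 3 of 4 weeks. The response was -0.79 ± 0.19 (adjusted p = 0.00884). Its counted coding sequence holds 132 of 357 nt.

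The other snRNP proteins that fell were SNRPB2 (-0.54), SNRPA1 (-0.49), SNRPD3 (-0.48), SNRPG (-0.39) and SNRPA (-0.35). SNRPB2 and SNRPA1 form the protein pair particular to the U2 snRNP, SNRPA is the U1 protein that binds a stem loop of U1 RNA, and SNRPD3 and SNRPG are subunits of the Sm ring. SNRPD2, the Sm protein whose codons are shown above, did not pass the test. It read 12.44, 12.09, 12.50 and 12.19 in shEIF2B1 -DOX and 12.44, 12.02, 12.14 and 12.03 in shEIF2B1 +DOX, and its response was 0.06 ± 0.13 (adjusted p = 0.779).

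Among the LSM proteins the fall was largest in LSM5, a subunit of the LSM2-8 ring on U6 RNA. Its RPF values were 7.81, 9.18, 8.13 and 9.87 in shEIF2B1 -DOX and 6.71, 8.54, 7.06 and 9.44 in shEIF2B1 +DOX, against 6.87, 7.96, 7.36 and 8.88 and then 7.43, 7.75, 7.67 and 9.34 in shCTRL. DOX went with a lower value in every week in shEIF2B1 and with a higher value in 3 of 4 weeks in shCTRL. The response was -1.09 ± 0.24 (adjusted p = 0.00494), on a counted coding sequence of 192 of 273 nt. LSM3 (-0.67) and LSM8 (-0.52) of the same ring fell as well, as did LSM14A (-0.53), which works in mRNA repression and P-bodies, and LSM12 (-0.38), neither of them a spliceosome subunit.

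Of the SF3 complexes, SF3B1, the largest SF3b subunit and the one that grips the branch point, had the smallest p. Its RPF values were 6.31, 7.13, 6.72 and 7.29 in shEIF2B1 -DOX and 5.94, 6.08, 5.96 and 6.25 in shEIF2B1 +DOX, groups that do not overlap, while shCTRL ran from 6.14 to 6.93 without DOX and from 6.26 to 7.01 with it. The response was -0.78 ± 0.18 (adjusted p = 0.008). The counted transcript is a short one, with 432 of 3912 nt of coding sequence, so this value does not describe the full-length mRNA. SF3A3 (-0.69), SF3B3 (-0.47) and SF3B6 (-0.39), the subunit that touches the branch adenosine, also fell.

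PRPF3, a U4/U6 protein of the tri-snRNP, had the smallest p among the PRPF genes. It read 6.64, 7.24, 6.75 and 7.36 in shEIF2B1 -DOX and 5.999, 6.17, 6.21 and 6.44 in shEIF2B1 +DOX, again without overlap. In shCTRL the values of the 2 groups interleaved, from 6.28 to 7.08 without DOX and from 6.11 to 6.85 with it. The response was -0.70 ± 0.19 (adjusted p = 0.0156). Others that fell were PRPF4B (-0.71), a kinase that phosphorylates tri-snRNP proteins, PRPF38B (-0.61), PRPF6 (-0.60), the bridge between U5 and U4/U6, PRPF38A (-0.48) and the U1-associated PRPF39 (-0.46).

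SRSF7 had the smallest p among the SR proteins. Its RPF values were 10.25, 10.41, 10.23 and 10.60 in shEIF2B1 -DOX and 9.53, 9.91, 9.57 and 10.06 in shEIF2B1 +DOX, without overlap, and in shCTRL 9.76, 10.36, 9.93 and 10.49 without DOX and 10.05, 9.98, 9.94 and 10.30 with it. The response was -0.54 ± 0.13 (adjusted p = 0.00925). SRSF10, an SR protein that acts as a repressor when dephosphorylated, fell by 0.62, and SRSF4 by 0.48.

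SRSF8 was the member whose response was called higher, 0.42 ± 0.13 (adjusted p = 0.0276). In shEIF2B1 its values barely moved, from 7.96, 7.66, 7.94 and 7.65 without DOX to 8.11, 7.76, 7.97 and 7.69 with it. In shCTRL they went from 8.13, 8.01, 8.37 and 8.06 to 8.12, 7.57, 7.92 and 7.61. The called difference therefore reflects lower induced values in shCTRL more than higher ones in shEIF2B1. U2AF1, the small subunit of U2AF and the U2AF gene with the smallest p, had a response of 0.21 ± 0.13 (adjusted p = 0.273), and its change within shEIF2B1 alone was -0.21. U2AF1 on chr21:43092956-43107587 has a near-identical copy, U2AF1L5 on chr21:6484623-6499261, and the authors' alignment may have split reads between them, so the values of both are uncertain.

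**Figure D2:**
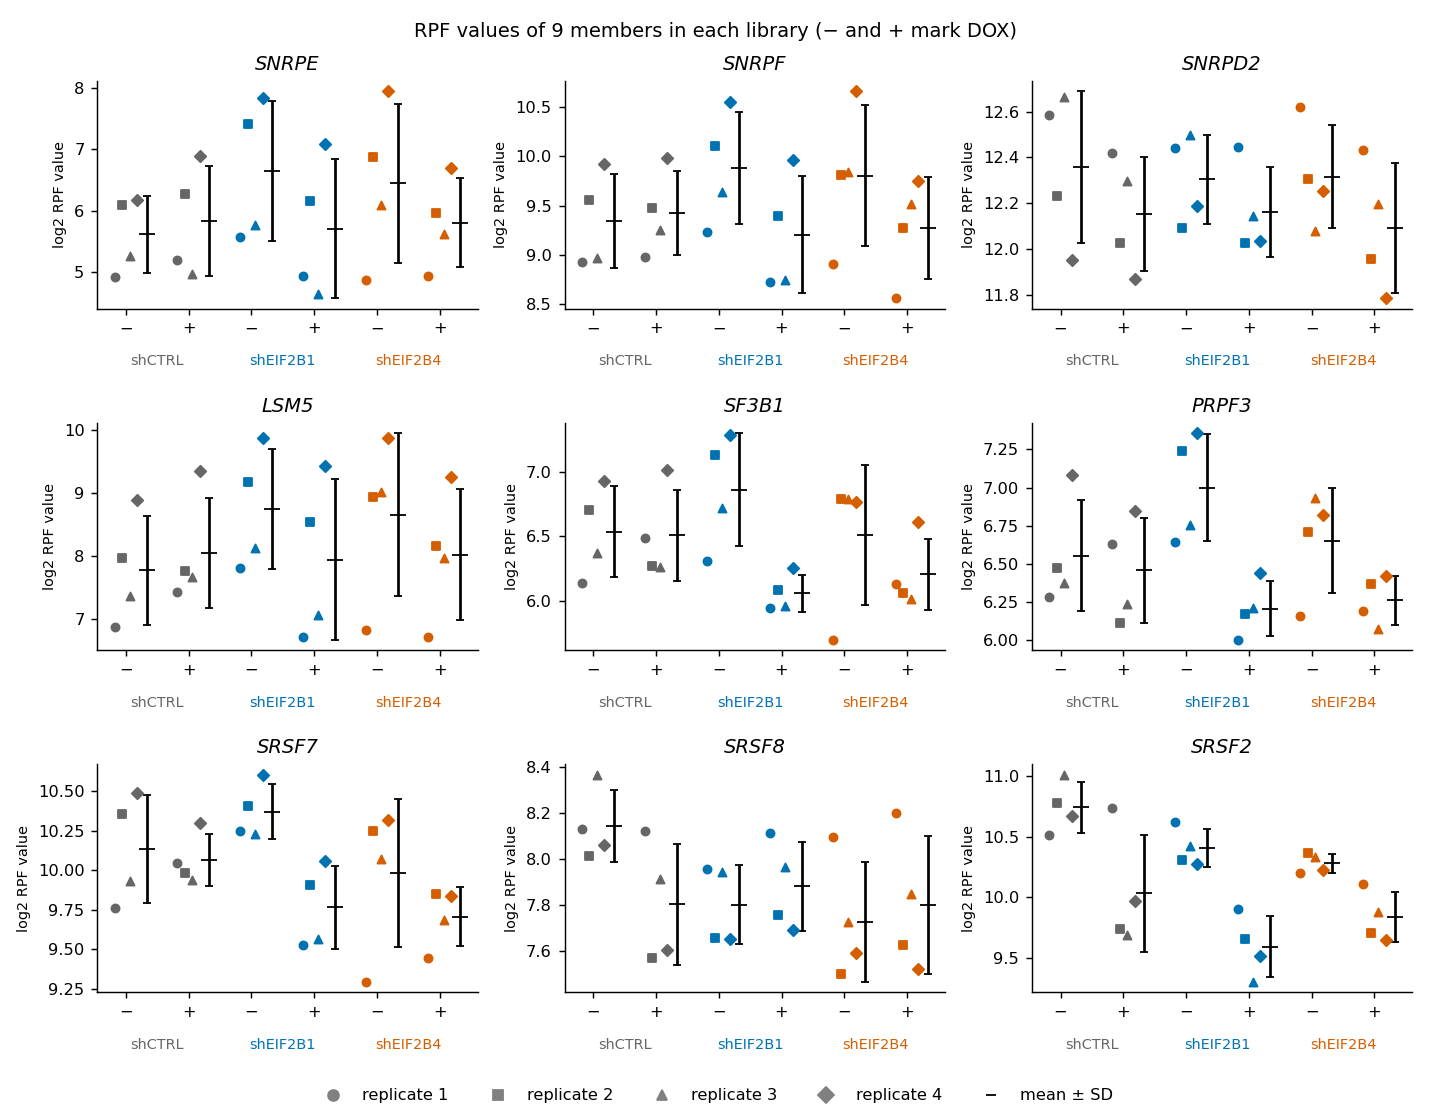
Log2 RPF values (y axis) of 9 members in each library, by line and DOX (x axis), with a marker for each week and the mean ± SD of 4 weeks. SNRPE and LSM5 stand highest in uninduced shEIF2B1 and shEIF2B4, SF3B1, PRPF3 and SRSF7 fall without overlap in shEIF2B1, and SNRPD2 stays between 11.78 and 12.66.

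The response can be taken apart into the difference between the lines without DOX and that with DOX, a comparison chosen after the data were seen. Without DOX, shEIF2B1 cells had higher RPFs than shCTRL cells in 26 of 61 members and lower ones in 11, while 29% of all genes were called higher and 25.1% lower. With DOX 7 members were lower and 0 higher in limma, against 4.81% and 5.65% of all genes, and 14 members had an unadjusted p under 0.05. Of the 27 members that fell in the response, all 27 were fitted above shCTRL without DOX, 25 of them called, with a median of 0.45. With DOX 22 of the 27 were fitted below shCTRL, 4 of them called, with a median of -0.14. These 27 were chosen by the response, which subtracts the difference without DOX, so a high value there is partly set by the choice. Over all 61 members the median difference was 0.11 without DOX and -0.11 with it, and over the other 34 members it was -0.04 and -0.08.

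SNRPE stood 1.03 ± 0.14 above shCTRL without DOX (adjusted p = 3.58e-05) and was at -0.13 with DOX (adjusted p = 0.621). LSM5 stood 0.98 ± 0.09 above (adjusted p = 3e-06) and was at -0.11 with DOX. SF3B1 was 0.33 ± 0.09 above shCTRL without DOX and 0.45 ± 0.12 below it with DOX (adjusted p = 0.0199). The difference with DOX was the larger one also for PRPF6 (0.12 without DOX, adjusted p = 0.239), SNRPA1 (0.11 without DOX, adjusted p = 0.304), SRSF7 (0.24 without DOX) and SRSF4 (0.21 without DOX, -0.27 with it). The other members lower with DOX were PRPF6 (-0.49), SRSF2 (-0.44), SNRPA1 (-0.38), LSM4 (-0.38), SF3A2 (-0.36) and SRSF7 (-0.30). SRSF2, SF3A2 and LSM4 were not called in the response, and SRSF2 (-0.33) and LSM4 (-0.22) were already lower without DOX.

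**Figure D3:**
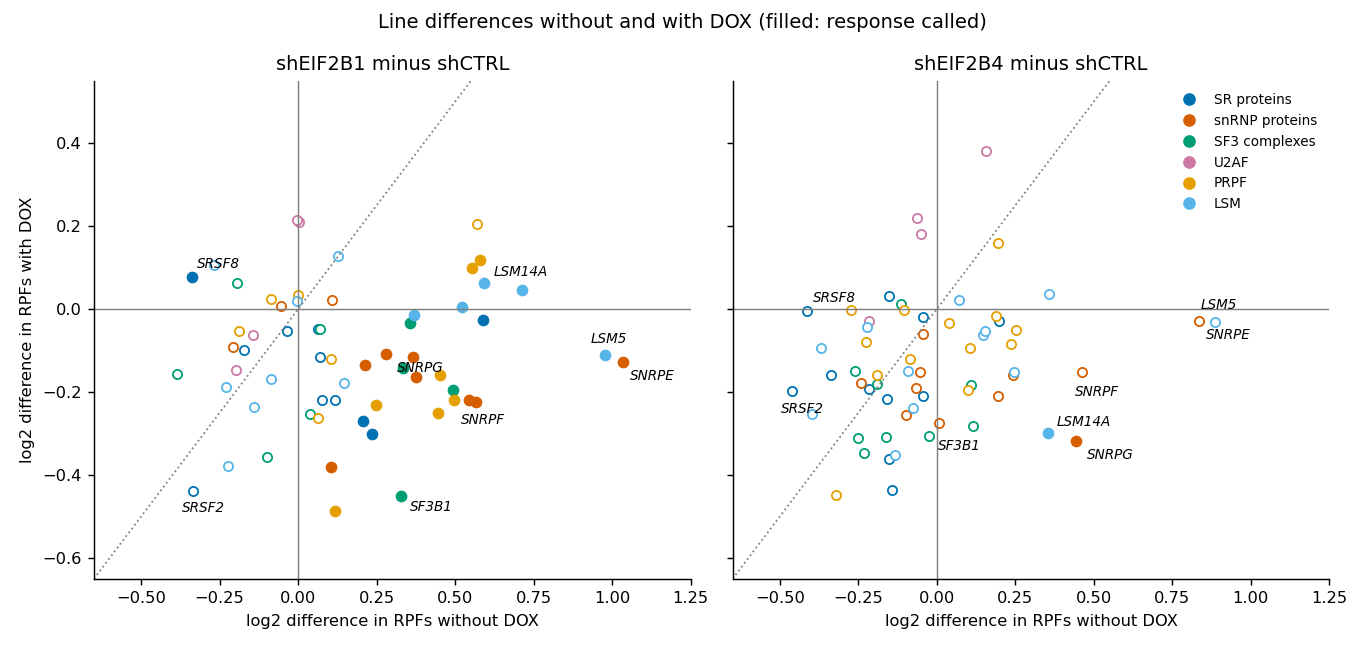
Log2 difference in RPFs from shCTRL without DOX (x axis) against that with DOX (y axis) for shEIF2B1 and shEIF2B4, 1 point a member, filled where the response was called. For shEIF2B1 the filled points below the dotted line of equality spread from 0.11 to 1.03 on the x axis and from -0.49 to 0.12 on the y axis.

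The median RPF value over the 11 snRNP proteins, averaged over 4 weeks, was 9.72 ± 0.15 (SD) in shCTRL -DOX and 9.68 ± 0.22 in shCTRL +DOX, 9.94 ± 0.49 and 9.57 ± 0.28 in shEIF2B1, and 9.97 ± 0.48 and 9.45 ± 0.23 in shEIF2B4. For the SR proteins it was 9.93 ± 0.38 and 9.54 ± 0.34 in shCTRL, 9.93 ± 0.26 and 9.41 ± 0.21 in shEIF2B1, and 9.75 ± 0.35 and 9.49 ± 0.21 in shEIF2B4. The SR median was thus lower with DOX in all 3 lines, shCTRL included, and the snRNP median lay within 0.1 of its uninduced value in shCTRL. For the SF3 proteins the medians were 9.63 and 9.42 in shCTRL, 9.73 and 9.31 in shEIF2B1, and 9.44 and 9.09 in shEIF2B4. For the PRPF proteins they were 7.37 and 7.16, 7.62 and 6.93, and 7.26 and 7.16 in that order. These are levels of fixed sets of genes, described and not tested.

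In total RNA few members moved after shEIF2B1: 3 of 62 fell and 0 rose in limma (11 with an unadjusted p under 0.05), with 1.13% of all genes called lower and 2.34% higher. The 3 were SF3B1, SF3B3, which is the scaffold partner of SF3B1, and PRPF4B. SF3B1 total RNA read 10.62, 10.78, 10.62 and 10.89 in shEIF2B1 -DOX and 10.16, 9.95, 10.25 and 10.18 in shEIF2B1 +DOX, against 10.47, 10.62, 10.37 and 10.66 and then 10.77, 10.50, 10.39 and 10.83 in shCTRL. The induced shEIF2B1 values lay below those of shEIF2B1 -DOX and of both shCTRL groups, and the response was -0.68 ± 0.13 (adjusted p = 0.00712). They overlapped the 10.13, 10.15, 10.14 and 10.50 of shEIF2B4 +DOX.

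SF3B3 went from 9.45, 9.47, 9.46 and 9.61 to 8.86, 8.96, 9.03 and 8.92 in shEIF2B1, also without overlap, and ran from 9.11 to 9.51 over the shCTRL libraries. Its response was -0.48 ± 0.11 (adjusted p = 0.0335). PRPF4B went from 9.50, 9.45, 9.60 and 9.58 to 8.90, 8.83, 8.97 and 9.15, with a response of -0.47 ± 0.12 (adjusted p = 0.0664). All 3 were called in RPFs too, and none in log2 TE. SF3B1 and SF3B3 total RNA was lower than in shCTRL also in the direct comparison with DOX (-0.49 and -0.33, adjusted p = 0.0192 and 0.0766), where 2.7% of all genes were called lower and 4.94% higher. SRSF2 and SNRPG were also lower there (-0.40 each). Without week 4 none of the 3 was called in the response, and without week 1 the count was 1. In each case 0.929% of all genes were called. In total RNA without DOX, SF3B1 was the 1 member called in shEIF2B1, higher by 0.20 (0.594% of all genes higher, 0.804% lower).

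Log2 TE, the log2 RPF value minus the log2 total RNA value of one lysate, separated another set. After shEIF2B1 6 of 61 members fell and 0 rose in limma (18 with an unadjusted p under 0.05), while 4.13% of all genes were called lower and 2.97% higher. They were SNRPE (-0.99 ± 0.25), LSM5 (-0.87 ± 0.28), SNRPF (-0.79 ± 0.21), LSM8 (-0.74 ± 0.20), SRSF10 (-0.59 ± 0.18) and SNRPB2 (-0.47 ± 0.16), with adjusted p from 0.0418 for SNRPE to 0.0992 for SNRPB2. SNRPE and SNRPF are subunits of the Sm ring, and LSM5 and LSM8 of the LSM ring. Other ring subunits were not called and lay on both sides, such as SNRPD1 (-0.60), LSM3 (-0.46), SNRPB (0.27), SNRPD2 (0.26) and LSM7 (0.14). The counted coding sequence of LSM8 holds 225 of 288 nt. All 6 called members had the same sign in 4 of 4 weeks. A response in log2 TE also subtracts the change of shCTRL on DOX. That change was above 0 in all 6, called in none: LSM5 (0.50), SNRPE (0.49), LSM8 (0.33), SNRPF (0.32), SRSF10 (0.18) and SNRPB2 (0.05). SNRPE read -5.98, -4.06, -6.08 and -3.86 in shEIF2B1 +DOX, near the -5.87, -4.26, -5.90 and -4.16 of shCTRL +DOX. Without DOX it read -5.51, -3.65, -5.36 and -3.47 in shEIF2B1 and -6.10, -4.89, -5.95 and -5.20 in shCTRL. None was called in log2 TE when week 1, week 3 or week 4 was left out, where 0%, 0.397% and 0.185% of all genes were.

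SNRPF shows the contrast between the measures. Its total RNA read 6.82, 7.21, 7.54 and 7.38 in shEIF2B1 -DOX and 6.94, 6.99, 7.05 and 7.13 in shEIF2B1 +DOX, and its response there was 0.03, while its RPF response was -0.76. SNRPE total RNA was lower with DOX in both lines, from a mean of 11.15 ± 0.18 to 10.88 ± 0.25 in shCTRL and from 11.14 ± 0.12 to 10.70 ± 0.34 in shEIF2B1. Across the 61 members the responses in RPFs and total RNA correlated at r = 0.44 (0.61 over 10836 genes, across genes, which are not independent replicates), and the RPF responses spread more widely, with an SD of 0.35 against 0.16.

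**Figure D4:**
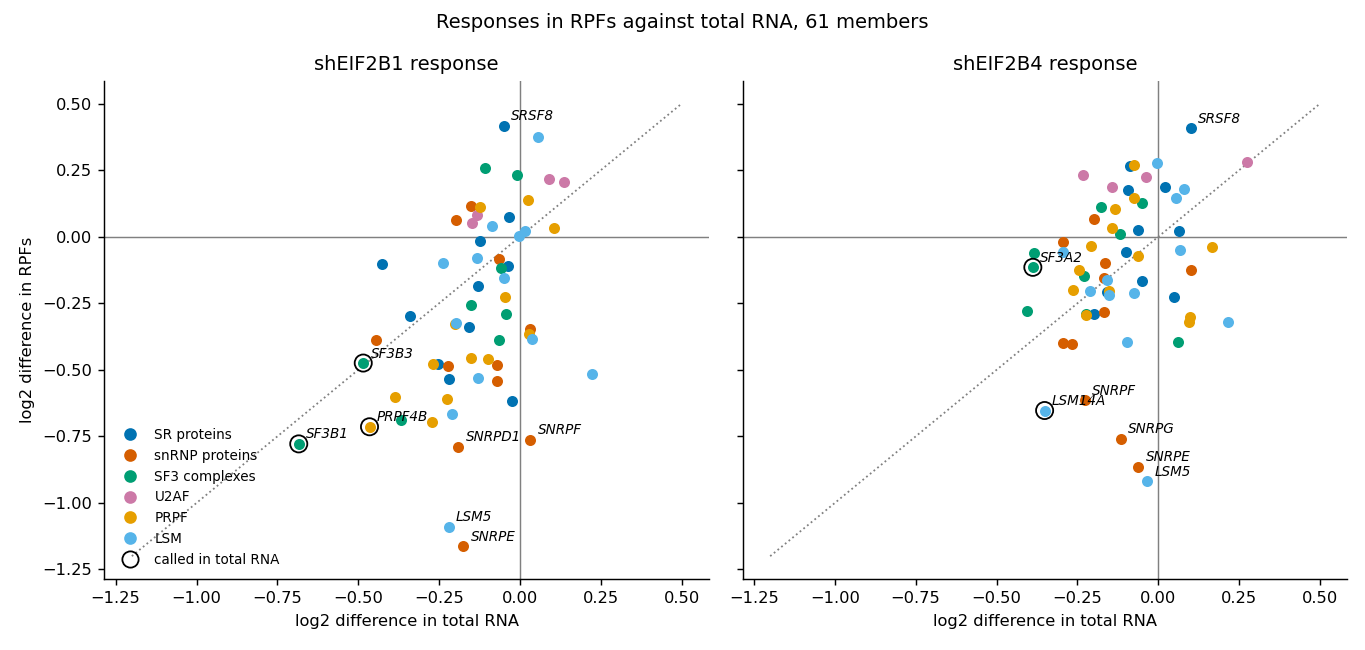
Log2 response in total RNA (x axis) against that in RPFs (y axis) for 61 members after each knockdown, coloured by subgroup, with a ring around members called in total RNA and a dotted line of equality. After shEIF2B1 SF3B1 and SF3B3 lie near the line, and SNRPE, LSM5 and SNRPF lie far below it at total RNA responses between -0.22 and 0.03.

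The size of the RPF differences went with codon ending. The response to shEIF2B1 correlated with GC3 at Pearson's r = 0.63 over 60 members and 0.61 over 10777 genes (points that share the same libraries). Without DOX the difference from shCTRL had r = -0.72 over the members and -0.79 over all genes, and with DOX it had r = -0.06 and -0.07. Of the 38 members with a GC3 below the median of all genes, 25 fell in the response (65.8%), against 28.8% of the 5299 such genes in the table. Of the 22 members above it 2 fell (9.09%) and 1 rose, against 2.08% and 21.3% of 5478 genes. SNRPE has a GC3 of 32.69%, SF3B1 of 32.64%, SNRPF of 39.53% and SRSF7 of 31.06%, while SNRPD2 has 82.2%, SRSF2 77.83% and SRSF8 76.95%. The shEIF2B4 line had a trend of the same direction. Over all genes its median response ran from -0.28 in the lowest bin of GC3 to 0.19 in the highest. Without DOX its median difference from shCTRL ran from 0.19 to -0.35. Members below the GC3 median had a median response to shEIF2B4 of -0.21, and those above it 0.03. Whether codon ending has a part in the differences was not tested.

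When the trend with GC3 was removed from each library before the fit, an alternative chosen after the data were seen, 10 of 60 members were called lower and 0 higher after shEIF2B1, against 519 of 10777 genes lower (4.82%). The 10 were SNRPF (-0.47), SNRPD1 (-0.76), SNRPE (-0.76), SNRPD3 (-0.47), SNRPA (-0.55), LSM5 (-0.84), PRPF3 (-0.55), PRPF6 (-0.73), SF3A3 (-0.59) and SRSF4 (-0.47). The snRNP proteins, 11 of the 60 members, supply 5 of these 10. Of the 5, 4 belong to the Sm ring, as do SNRPB, SNRPD2 and SNRPG, which were not called. In log2 TE 0 members were called after this step, with 10 at an unadjusted p under 0.05, where 0.21% of all genes were called.

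After shEIF2B4 2 of 61 members were called in RPFs, both lower, while 0.87% of all genes were called lower and 1.88% higher. They were SNRPG and LSM14A, and the median over the members was -0.11, against -0.02 over all genes. SNRPG, an Sm protein, read 10.02, 10.50, 10.45 and 11.15 in shEIF2B4 -DOX and 9.28, 9.68, 9.78 and 10.06 in shEIF2B4 +DOX. In shCTRL it read 9.91, 10.09, 9.99 and 10.35 without DOX and 9.78, 10.12, 9.84 and 10.33 with it. In every week the uninduced shEIF2B4 library was the higher and the induced one the lower of the 4, and the response was -0.76 ± 0.16 (adjusted p = 0.0175). Its counted coding sequence holds 228 of 288 nt.

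LSM14A went from 8.15, 8.94, 8.78 and 9.10 to 7.80, 8.21, 8.07 and 8.46 in shEIF2B4, against 8.16, 8.51, 8.25 and 8.62 and then 8.26, 8.47, 8.33 and 8.67 in shCTRL. Its response was -0.65 ± 0.15 (adjusted p = 0.0319). Without DOX, 4 members were higher in shEIF2B4 than in shCTRL and 3 lower, against 1.55% and 12.4% of all genes. The 4 were SNRPE (0.84), LSM5 (0.89), SNRPF (0.46) and SNRPG (0.44), while LSM14A was at 0.35 (adjusted p = 0.108). With DOX SNRPG was 0.32 and LSM14A 0.30 below shCTRL, both called. Both also kept their calls after the GC3 trend was removed. LSM5 and SNRPE had responses of a similar size, -0.92 and -0.86, that did not pass the test (adjusted p = 0.156 and 0.173).

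The members with the smallest p in the other subgroups after shEIF2B4 were SRSF8 (0.41 ± 0.15, adjusted p = 0.196), U2AF1 (0.23 ± 0.15, adjusted p = 0.449), SF3B6 (-0.40 ± 0.22, adjusted p = 0.398) and PRPF31 (0.27 ± 0.14, adjusted p = 0.349), none of them called. In total RNA 2 of 62 members fell, with 1.62% of all genes called lower and 3.78% higher. LSM14A went from 10.47, 10.56, 10.71 and 10.69 to 10.23, 10.22, 10.16 and 10.16, without overlap, and its response was -0.35 ± 0.10 (adjusted p = 0.0785). SF3A2, a subunit of SF3a, went from 6.71, 6.84, 6.93 and 6.74 to 6.40, 6.47, 6.41 and 6.41, with a response of -0.39 ± 0.12 (adjusted p = 0.0981). LSM14A was the 1 member called in both RPFs and total RNA. In log2 TE 0 of 61 members were called by limma and 7 had an unadjusted p under 0.05, where 0.0277% of all genes were called lower and 0.0646% higher. The RPF count moved to 11 without week 1, 9 lower and 2 higher, where 14.5% of all genes were called, and to 0 without week 2 or week 4, where 0.691% and 0.386% were.

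With DOX, the direct comparison of shEIF2B4 with shCTRL gave 19 lower and 2 higher members of 62 in total RNA, against 19.1% and 10.9% of all genes. Among them were 6 of 11 snRNP proteins and 5 of 9 SF3 proteins, with SF3B1 lowest at -0.39 (adjusted p = 0.00181). U2AF1L4 was called higher also without DOX (0.36), the 1 member called there, where 0.728% of all genes were higher and 1.59% lower. With DOX U2AF1L4 and U2AF1L5 were higher (0.33 and 0.40) and U2AF1 was lower (-0.23). Reads may have been split between the near-identical U2AF1 and U2AF1L5, so their opposite moves are uncertain. In RPFs 14 members were lower and 1, U2AF1L4, was higher, against 25.3% and 4.09% of all genes, so the members' share lay near that of the table. All shEIF2B4 libraries have lower medians than shCTRL, as given above, and their part in these counts was not tested.

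The 2 knockdowns were then compared directly, over all 24 libraries. No member was called in RPFs (0 of 61 by limma, 5 with an unadjusted p under 0.05), where 0.00897% of all genes were called, and none was in total RNA (0 of 62, 5 with an unadjusted p under 0.05), where 0.1% were called. The 28 and 2 calls thus do not show that shEIF2B1 and shEIF2B4 act differently on these genes. The median difference of the RPF responses was -0.16 over the members and lowest in the PRPF proteins (-0.29). The 95% interval of the difference was -0.97 to -0.03 for SF3B1 and 0.04 to 0.71 for SNRPG, both with an adjusted p of 0.746. Both responses subtract the same shCTRL libraries.

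shCTRL itself changed on DOX, which bears on every response. In RPFs 11 of 61 members fell and 0 rose, while 4.62% of all genes were called lower and 5.23% higher. The falls were in 4 of 11 SR proteins, 3 of 4 U2AF genes, 2 of 9 SF3 proteins, 1 snRNP protein (SNRPB), 1 LSM protein (LSM7) and 0 of 13 PRPF proteins. SRSF2, a founding SR protein, changed most. It read 10.51, 10.77, 11.01 and 10.67 without DOX and 10.74, 9.74, 9.69 and 9.97 with it, lower in weeks 2 to 4 and higher in week 1. Its change was -0.71 ± 0.19 (adjusted p = 0.0608).

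SRSF2 changed by -0.81 within shEIF2B1 and by -0.44 within shEIF2B4 on DOX, and its response corrected for shCTRL was -0.10 and 0.27. U2AF1L5 (-0.58 ± 0.11, adjusted p = 0.0338) and SRSF6 (-0.50 ± 0.16, adjusted p = 0.0892) followed. U2AF1L5 read 8.43, 8.26, 8.49 and 8.09 without DOX and 8.25, 7.54, 7.67 and 7.48 with it, and SRSF6 9.47, 10.17, 9.79 and 10.16 without DOX and 9.72, 9.23, 8.96 and 9.68 with it. U2AF1L5 was lower in every week, and SRSF6 was lower in weeks 2 to 4 and higher in week 1. The values of U2AF1L5 and U2AF1 are uncertain, since reads may have been split between them, and they may not count as separate genes.

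In total RNA 4 of 62 members fell in shCTRL, U2AF1L5, SRSF2, SNRPC and SNRPB, with 2.18% of all genes called lower and 2.27% higher. In log2 TE 0 of 61 were called by limma and 12 had an unadjusted p under 0.05, where 0.203% of all genes were called lower and 0.185% higher. The members' median change in RPFs was 0.07 in week 1 and -0.31, -0.25 and -0.11 in weeks 2 to 4. Without week 1 the RPF count went from 11 to 29, where 31.6% of all genes were called, and without week 2, 3 or 4 it was 0, where 0.0359%, 0.0269% and 0.0359% were.

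Other splicing genes, outside the symbol rule, were measured beside them. Of 67 measured genes on a list of 68, 25 fell and 0 rose in RPFs after shEIF2B1 (median -0.31), beside the 15.3% of all genes. Genes of the PRPF19 complex and its relatives made up 9 of the 25, among them CWC22 (-0.85) and CDC5L (-0.77), and the helicase DHX15, which takes spent spliceosomes apart, had the largest fall of the list, -1.11 ± 0.18 (adjusted p = 0.000756). DHX15 and SON, 2 of 68 genes, were also lower in total RNA, beside 1.13% of all genes. Of the genes that load the Sm ring 2 of 13 fell, STRAP (-0.75) and CLNS1A (-0.46), a share near the 15.3% of all genes. CLNS1A was the 1 gene of the list called after shEIF2B4 in RPFs (-0.62 ± 0.15, adjusted p = 0.0543), where 0.87% of all genes were lower. Without DOX 37 of the 67 were higher in shEIF2B1 than in shCTRL and 2 lower, beside 29% and 25.1% of all genes. In log2 TE 8 of 67 fell after shEIF2B1, CWC22 among them (-0.83), beside 4.13% of all genes.

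SNRPF was used to look for genes with a like pattern, over 24 RPF libraries after each week's mean was removed. The 5 highest were MZT1 (r = 0.94), MSMO1 (0.93), MIX23 (0.93), PAFAH1B2 (0.93) and FABP5 (0.92), none of them a splicing gene. Among the members SNRPE (0.90), SNRPD3 (0.89), SNRPG (0.85) and LSM5 (0.85) came closest, and LSM10 of the U7 ring was farthest (-0.56). These values describe the 24 libraries, which share lines and DOX.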

How the data were processed

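RPFs and total cytoplasmic RNA of 24 SW480 lysates were analysed in 48 libraries, and groups and replicate numbers were taken from the labels. Per the labels and the paper's methods, the authors trimmed reads with cutadapt 1.18, aligned total RNA to GENCODE v38 protein-coding transcripts with Bowtie2, quantified it with RSEM, took 1 transcript per gene, the most abundant, and counted RPF reads within its coding sequence, with 2 runs joined for replicate 3. The deposited values are regularized log2 values made by the authors with DESeq2. They hold no read counts, so the depth of each library is unknown and no count test was run. Only the spread of the group differences over the weeks measures precision.

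The model was fitted with limma 3.58.1 under R 4.3.3 (lmFit, then eBayes with a mean-variance trend) on the product of shRNA and DOX, with the week as a block, over 16 libraries for a response, 8 for shCTRL and 24 for the difference between the knockdowns. P-values are two-sided and adjusted over all genes of a table. The weeks pair the libraries per the labels. With group means removed, 52 of 60 same-week pairs of RPF libraries correlated above 0.1, as did 37 of 60 in total RNA and 55 of 60 in log2 TE. The members, gene lists and tests were chosen with earlier results of these data known. Named with a fitted difference and its SE are the 3 largest falls and rises after each knockdown among called members with one sign in 4 weeks, the member of smallest p in each subgroup, members called in total RNA or log2 TE, and the 3 largest changes of shCTRL. SNRPD2, the list of sequences and other members named with a value were chosen after their values were seen, and so were the GC3 removal and the split by DOX.

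Coding sequences, GC3 and positions come from GENCODE v29 on GRCh38, matched by transcript identifier without version, and SRSF6 had no match. GC3 was computed in Python 3.11.15, its trend was removed by loess (span 0.5), and figures were drawn with matplotlib 3.10.9. On simulated RPF data for shEIF2B1 with 11145 genes, 92 of 100 changes of 1 log2 unit and 27 of 100 of 0.5 were recovered, with 14 false calls. Alternatives were no block, no trend, a filter on the lowest 25% of genes, centred libraries, a threshold of 0.05, each week left out, no shCTRL correction, all 24 libraries in one fit, weekly changes, and removal of the GC3 trend. The values of 1 member called lower and a further sequence are not reported here.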

Additional observations from a re-analysis of the deposited data

Results flagged for a closer look

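Among the named members 162 groups of 4 libraries were examined for 1 library far from the other 3, and 11 were found, where chance gives about 1 in 20. The check did not remove differences between weeks. In RPFs LSM5 stood at 9.34 in week 4 of shCTRL +DOX (others 7.43 to 7.75), and SRSF10 at 9.26 in the same library (others 8.30 to 8.45). For both genes week 4 was the highest week in every group. In week 1 of shEIF2B4 -DOX, PRPF4B stood at 5.16 (others 5.95 to 6.08), SF3B1 at 5.69 (others 6.77 to 6.79) and SRSF6 at 9.23 (others 9.87 to 9.96). SF3B3 stood at 8.79 in week 4 of shEIF2B4 +DOX (others 8.34 to 8.42).

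In total RNA SF3B1 stood at 10.76 in week 3 of shEIF2B4 -DOX (others 10.44 to 10.49) and at 10.50 in week 4 of shEIF2B4 +DOX (others 10.13 to 10.15). LSM14A stood at 10.53 in week 1 of shEIF2B1 -DOX (others 10.66 to 10.69), SF3B3 at 9.61 in week 4 of shEIF2B1 -DOX (others 9.45 to 9.47) and SF3A2 at 6.47 in week 2 of shEIF2B4 +DOX (others 6.40 to 6.41).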

How the results depend on the processing

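Of 123 alternative counts of called members 70 stayed within 1.5 times of the reported one. With no replicate block 0 members were called in RPFs after shEIF2B1 (28 reported), after shEIF2B4 (2) and in shCTRL (11). Over all genes 0.449%, 0.323% and 0% were called there. In total RNA 0 were called after shEIF2B4 (2) and in shCTRL (4), with 2.92% and 0.0753% of all genes. In log2 TE 0 were called after shEIF2B1 (6), with 0% of all genes. With no shCTRL correction, RPF counts were 45 for shEIF2B1 and 19 for shEIF2B4, against 49.4% and 23.8% of all genes. In total RNA they were 33 and 37 (34.4% of all genes for each), and in log2 TE 13 and 1 (17.1% and 6.21%). U2AF1 turned to -0.21 and -0.18 in RPFs without that correction. With all 24 libraries in one fit 16 were called in RPFs (17% of all genes) and 0 in log2 TE (0.406%) after shEIF2B1. After shEIF2B4 1 was called in total RNA (4.49% of all genes). With weekly changes fitted, 13 were called in log2 TE after shEIF2B1, and 10 in RPFs, 7 in total RNA and 4 in log2 TE after shEIF2B4. The share of all genes called rose at this setting in each case too. After shEIF2B4 it was 18% in RPFs, 10.1% in total RNA and 6.63% in log2 TE, near the members' shares. At an adjusted p under 0.05 shCTRL gave 2 in RPFs (2.46% of all genes) and 0 in total RNA (0.343%). That threshold left 3 in log2 TE after shEIF2B1 (2.22%) and 0 in total RNA after shEIF2B4 (3.13%). With no mean-variance trend shCTRL gave 6 in RPFs (8.35% of all genes) and 1 in total RNA (3.31%). With centred libraries it gave 1 in total RNA (3.47%). With the GC3 trend removed, shEIF2B1 gave 10 in RPFs, 7 in total RNA (1 of them higher) and 0 in log2 TE. Over all genes 10.2%, 5.38% and 0.21% were called there.

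With 1 week left out, RPF counts ran from 12 to 25 after shEIF2B1, from 0 to 11 after shEIF2B4 and from 0 to 29 in shCTRL. Shares of all genes called ran from 13.7% to 24.4%, from 0.386% to 14.5% and from 0.0269% to 31.6%. In total RNA the counts ran from 0 to 4, from 0 to 2 and from 0 to 30. The shares ran from 0.929% to 5.4%, from 1.82% to 4.15% and from 0.0251% to 20.5%. In log2 TE the counts ran from 0 to 6, from 0 to 7 and from 0 to 8. The shares ran from 0% to 12.6%, to 13.1% and to 5.73%. The cause of these shifts was not tested beyond the smaller number of weeks. Of 365 alternative values of named members 99 lost their call, 4 gained one and 2 reversed. Depth is unknown, so a small difference that was not called is not shown to be absent. The self-test recovered 27 of 100 changes of 0.5. It changed 100 genes by 1 and 100 by 0.5 among 11145, while 3038 genes were called in RPFs after shEIF2B1. Its recovery rate therefore need not hold for these data.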
